A study of Mus musculus with 9 samples.

Results

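Transcript levels of ovulated mouse oocytes from prepubertal females were compared with those from sexually mature females. The comparison rested on 6 of the 9 arrays of the series, 3 per age, and on 29342 of the 39429 probes, those that stood well above background on 3 or more of these 6. The females were B6C3F1 hybrids of C57Bl/6J and C3H/HeN mice, 3 weeks old in the prepubertal and 8 ± 1 weeks old in the mature group. A climacteric group of 58 ± 10 weeks (52 weeks in the growth protocol) supplied 3 more arrays, which entered the fit only for its estimate of the spread. All females carried the same genotype and were superovulated with 10 IU of PMSG, a gonadotropin that drives follicle growth, followed 48 h later by 10 IU of hCG, which triggers ovulation. Metaphase II oocytes were collected from the oviduct 14 h after hCG and stripped of cumulus cells, and the labels leave unclear whether the pools used for RNA were also freed of the zona pellucida. Each array carried RNA of 1 pool of 20 oocytes, amplified over 2 rounds. No label ties a pool to particular females, so the tests reflect variation among pools only, some of which may be technical.

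A metaphase II oocyte is arrested in the second meiotic division and makes almost no new RNA. Its transcripts were stored during growth in the follicle, and they are translated, masked or degraded as the egg matures and is fertilized. In a prepubertal female the first follicle waves grow without ovulatory cycles, and a gonadotropin injection can bring them to ovulation. The comparison addressed whether eggs released before puberty hold the same stored transcripts as eggs of adult females. In such pools, fewer cells of a type and less RNA per cell cannot be told apart.

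The share of probes well above background lay between 68.0% and 76.8% across the 6 arrays. Mature arrays 2 and 3 stood at the top of that range and the 4 arrays of slide 1 below them. Slide 1 held all 3 prepubertal arrays and mature array 1, while mature arrays 2 and 3 lay on slide 2. Over the probes kept, prepubertal arrays correlated with each other at 0.967 to 0.969, mature arrays at 0.972 to 0.984, and arrays of different age at 0.963 to 0.975, so an array was not always closer to its own age. The oocyte label was borne out by its markers: 11 or 12 of 12 were well above background on each array, and their summed linear level ran from 1062 to 1277 in prepubertal and from 1035 to 1082 in mature pools, in units of the array's 75th percentile.

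Of the 29342 probes, 14 (0.0477%) passed limma's test at a Benjamini-Hochberg adjusted p of 0.05. There were 2 (0.00682%) higher and 12 (0.0409%) lower in prepubertal oocytes. Of the 12 lower probes, 9 belonged to vomeronasal type 1 receptors (Vmn1r genes), and the others to Hinfp, Plgrkt and Srp68. The higher probes were those of Lpxn and Defb41. The Hinfp and Lpxn probes were above background on all arrays of 1 age and on none of the other. They met the filter only through the age where they were high. With the filter at all 6 arrays they were left out, and the other 12 passed. Adjusted p-values ran from 0.0254 to 0.0443, and the prepubertal and mature values did not overlap for any of the 14 probes. The count was 0 when the 6 arrays were fitted without the climacteric ones (3116 probes at an unadjusted p under 0.05), and 0 with slide as a fixed block (1900) or within slide 1 (1627), where mature array 1 stands alone for its age. Dropping the 2 arrays of lowest detection (prepubertal array 2 and climacteric array 3), a choice made after the data were seen, also left 0 (2271). Single arrays moved it: 124 probes passed without mature array 1, 9 without prepubertal array 2, 6 without climacteric array 1, and 0 without any 1 of the other arrays. Without mature array 1, the prepubertal arrays lay on slide 1 and the mature ones on slide 2, so age and slide could not be told apart.

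**Figure D1:**
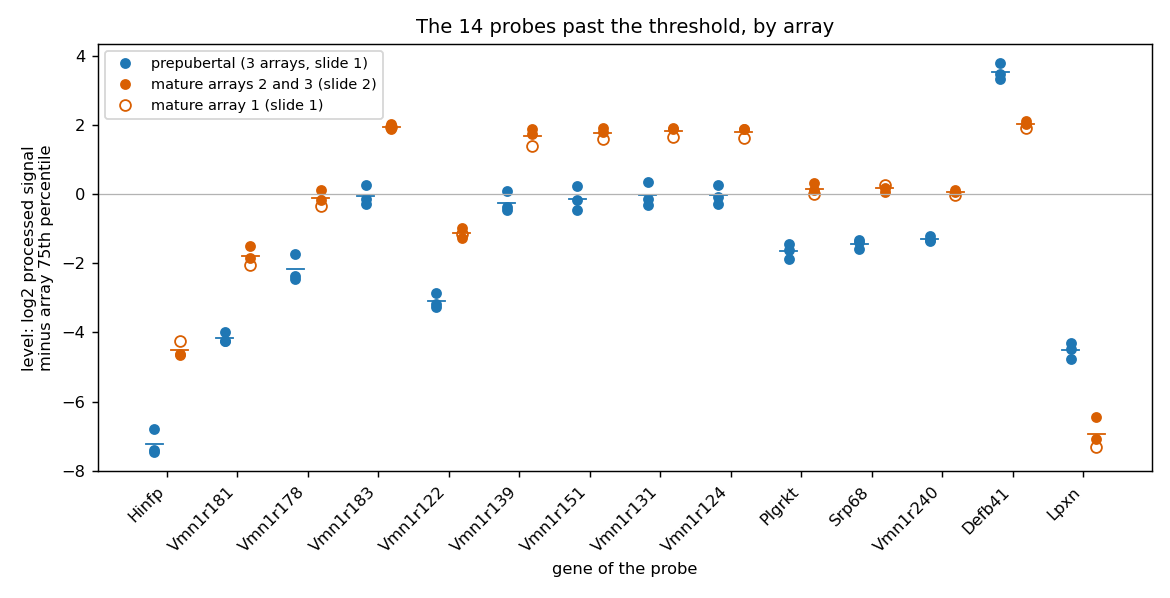
Level of each of the 14 probes on the prepubertal arrays (blue) and the mature arrays (orange; the open circle is mature array 1, which shared slide 1 with the prepubertal arrays), as log2 processed signal minus the array's 75th percentile, with a short line at each mean. The ages do not overlap for any of the 14 probes, and the open circle lies with the other mature arrays.

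The mature array that shared slide 1 with the prepubertal ones lay with the other mature arrays for all 14 probes. Within that slide the 14 differences ran from 1.27 to 2.97 in size, against 1.35 to 2.71 over all arrays, and they kept their signs. Those signs were fixed in advance by the choice of probes whose ages did not overlap. Across all probes, 18.1% had ages that did not overlap, 9.15% with the prepubertal arrays above and 8.93% with them below.

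Vmn1r genes encode G protein-coupled receptors that detect pheromones in sensory neurons of the vomeronasal organ. They form one of the largest gene families of the mouse, arranged in clusters of recent duplicates, so a probe can bind transcripts of several copies. The 9 probes past the threshold lay on chromosome 7 of mm9, within chr7:20707065-24840710, a block of 4.13 Mb. The probe sequences fell into 3 sets with alignments of at least 70% identity within a set, and they are shown because they decide which transcripts were read. In the first set, capitals mark the bases that differ from the Vmn1r122 probe or extend beyond it.
Vmn1r122: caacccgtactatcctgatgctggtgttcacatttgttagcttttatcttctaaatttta
Vmn1r178: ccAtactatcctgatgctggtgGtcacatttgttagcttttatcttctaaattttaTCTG
Vmn1r181: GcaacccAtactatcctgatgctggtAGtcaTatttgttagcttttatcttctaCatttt
In the next set, capitals mark the same against the Vmn1r131 probe, which matched Vmn1r139 at 95%, Vmn1r151 at 93.3% and Vmn1r240 at 71.7% of its 60 bases.
Vmn1r131: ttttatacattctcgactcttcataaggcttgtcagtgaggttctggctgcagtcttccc
Vmn1r139: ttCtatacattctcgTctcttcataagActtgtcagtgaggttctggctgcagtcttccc
Vmn1r151: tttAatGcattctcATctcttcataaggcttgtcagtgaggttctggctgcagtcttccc
Vmn1r240: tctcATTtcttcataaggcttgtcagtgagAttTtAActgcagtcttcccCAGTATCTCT
The last set held the probes of Vmn1r183 and Vmn1r124, which were 90.0% identical. The probe of Vmn1r169, 86.7% identical to that of Vmn1r183, is shown with them because its difference had the opposite sign. Capitals mark bases that differ from the Vmn1r183 probe.
Vmn1r183: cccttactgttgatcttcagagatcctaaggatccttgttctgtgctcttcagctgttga
Vmn1r124: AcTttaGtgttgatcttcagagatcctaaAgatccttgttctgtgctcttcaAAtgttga
Vmn1r169: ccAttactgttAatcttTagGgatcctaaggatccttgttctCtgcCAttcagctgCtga
Probes of different sets matched each other at only 35.0% to 43.3% of bases.

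In the first set, the Vmn1r181 probe (chr7:24769833-24769892) stood at -4.24, -3.98 and -4.26 on the prepubertal arrays and at -2.06, -1.84 and -1.51 on the mature ones. Levels are given throughout as log2 processed signal minus the array's 75th percentile, so a difference of 1 is a 2-fold change. All prepubertal arrays lay below all mature arrays, and the difference of -2.35 (SE 0.24, limma adjusted p = 0.0352) is a 5.12-fold lower level in prepubertal oocytes. Vmn1r122 (chr7:21918382-21918441) read -3.17, -2.85 and -3.28 against -1.15, -1.27 and -0.99, a difference of -1.96 (SE 0.18, limma adjusted p = 0.0254). Vmn1r178 (chr7:24679255-24679314) read -2.45, -1.73 and -2.37 against -0.34, -0.16 and 0.13, a difference of -2.06 (SE 0.23, limma adjusted p = 0.0352). For both probes the ages were separate, and prepubertal array 2 was the highest of its age.

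In the Vmn1r131 set, Vmn1r131 (chr7:22330259-22330318) read -0.14, 0.36 and -0.33 on prepubertal and 1.64, 1.87 and 1.91 on mature arrays. Vmn1r139 (chr7:21004085-21004144) read -0.38, 0.10 and -0.47 against 1.40, 1.73 and 1.89, and Vmn1r151 (chr7:23283850-23283909) read -0.19, 0.24 and -0.46 against 1.59, 1.80 and 1.92. These closely alike probes gave differences of -1.85, -1.92 and -1.91 with SEs of 0.20 to 0.21. Vmn1r240 (chr7:20707065-20707124), the least similar of the set, read -1.32, -1.23 and -1.36 against -0.04, 0.07 and 0.11, and its difference of -1.35 (SE 0.14, limma adjusted p = 0.0352) was the smallest of the 9. Of the remaining set, Vmn1r183 (chr7:24840651-24840710) read -0.13, 0.25 and -0.30 against 1.94, 1.87 and 2.01, and Vmn1r124 (chr7:22044713-22044772) read -0.09, 0.27 and -0.30 against 1.61, 1.88 and 1.88. Vmn1r183 was 4.01-fold lower in prepubertal oocytes (SE 0.18 on the log2 scale), and Vmn1r124 3.56-fold (SE 0.19).

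Which receptor genes were read cannot be settled from probes this alike, and members of a set are not independent measurements. Other probes at the same loci gave other values. A second probe of Vmn1r183, which starts 319 bases from the called one, read -4.24, -3.98 and -4.22 against -4.17, -3.68 and -4.10. Its difference was -0.17 (SE 0.18, 95% interval -0.58 to 0.25). A second probe of Vmn1r178, 88 bases away, differed by -0.23 (SE 0.40, interval -1.15 to 0.69). That probe was 76.7% identical to the called Vmn1r240 probe, which is above the 70% that defined the sets. The probe named Vmn1r157 starts 399 bases from that of Vmn1r139 on the same strand of mm9, and it read -4.35, -4.69 and -4.15 against -4.60, -4.82 and -4.47, a difference of 0.23 (SE 0.22, interval -0.26 to 0.72). Their ages overlapped in each of these 3 neighbours. A further probe of Vmn1r183 and one of Vmn1r181 were above background on 0 of the 6 arrays and were not tested. The Vmn1r169 probe stood at -1.98, -1.997 and -1.57 in prepubertal and at -1.91, -2.87 and -2.77 in mature oocytes, a difference of 0.67 (SE 0.28, limma adjusted p = 0.462) with ages that overlapped.

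The family as a whole had 180 probes of 168 genes on the array, of which 98 probes of 94 genes were kept. Of the 98, 9 passed the threshold (9.18%, against 0.0477% of all probes), and 26 were lower (26.5%, against 5.66% of all probes) and 4 higher (4.08%, against 5.03%) at an unadjusted p under 0.05. In all, 70 of the 98 were below 0, with a median of -0.20, where all probes had a median of -0.01. Within slide 1 the median of the 94 genes was 0.03, and with normexp background correction 0.05, so no direction of the family held over the settings. Within the block, 24 probes were kept, and the 15 that did not pass had a median of -0.17 and ran from -1.86 to 0.67. The 74 probes elsewhere had a median of -0.17 and ran from -2.66 to 1.44. Below 0 were 21 of the 24 probes of the block and 49 of the 74 elsewhere. Of the 15 uncalled probes of the block, 5 were lower at an unadjusted p under 0.05, and of the 74 elsewhere 12. These 15 were what remained after the called probes were taken out, so their values do not compare the block with the rest.

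Among probes of the block that did not pass, Vmn1r132 read -0.56, -0.16 and -0.86 against 1.11, 1.30 and 1.58, a difference of -1.86 (SE 0.25, limma adjusted p = 0.0885). Vmn1r148 read -1.87, -1.90 and -2.59 against -0.60, -0.23 and -0.31, a difference of -1.74 (SE 0.27, limma adjusted p = 0.163). The ages were separate in both, and both probes were at most 40% identical to any called probe. Vmn1r121 had 2 probes, and they differed by -1.29 (SE 0.34) and by 0.00 (SE 0.16). The most negative value of the family, -2.66 for a Vmn1r217 probe on chromosome 13, came from prepubertal array 3 alone, which read -7.70 where the other prepubertal arrays read -0.26 and -0.18. The adjacent Vmn1r217 probe read -2.64, -2.55 and -2.52 against -2.88, -2.45 and -2.66, a difference of 0.09 (SE 0.16).

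**Figure D2:**
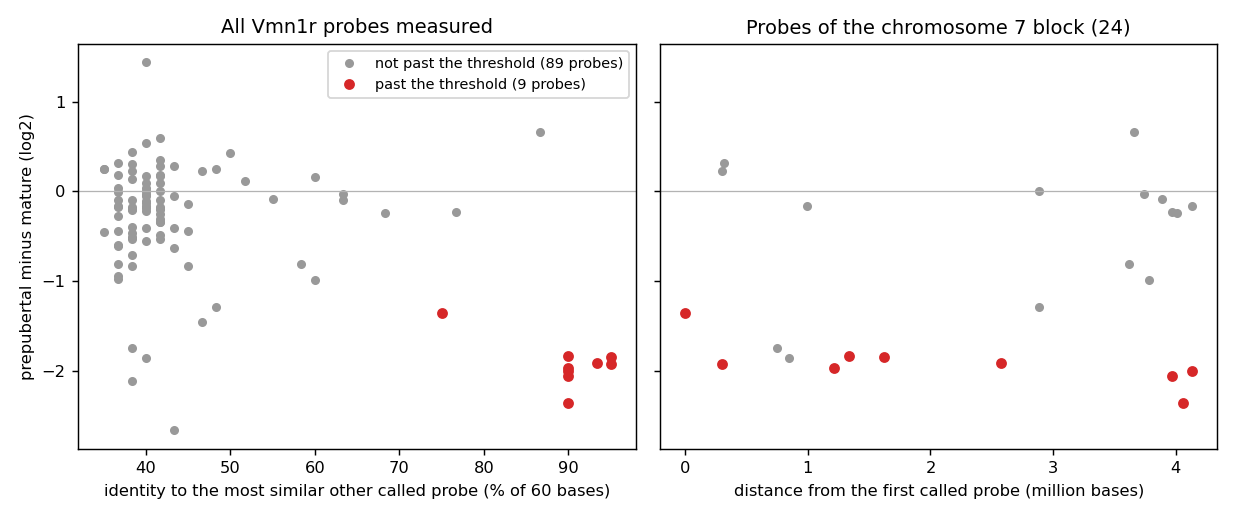
Log2 difference, prepubertal minus mature, of the 98 Vmn1r probes kept, with the 9 past the threshold in red: at left against the identity of the probe to the most similar other called probe, at right, for the 24 probes of the chromosome 7 block, against the distance along the chromosome. The called probes stand at -1.35 to -2.35, 8 of them at an identity of 90% or more, and uncalled probes lie between them along the block.

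Promoter sequences were compared because these probes moved together. RefSeq promoter windows of 300 bases around the gene start, on GRCm38.p6, were at hand for 8 of the 9 genes. A run of 19 bases, TGAAAACCACTGAGGAAGT, was the longest stretch shared by 7 of the 8, all but Vmn1r181. The Vmn1r181 window ends with bases that lie well before the run in the Vmn1r183 window. It may stop short of that position, so whether Vmn1r181 lacks the run was not settled. Searched on both strands, the run occurred in 71 of 32851 promoters (0.216%), 67 of them among the 206 Vmn1r promoters. Of the 13 Vmn1r genes measured here that hold it, 7 passed the threshold, and the others, Vmn1r121, Vmn1r173, Vmn1r168, Vmn1r101, Vmn1r157 and Vmn1r118, had differences of -1.29, -0.99, -0.81, 0.32, 0.23 and -0.16. The run was picked from windows of genes past the threshold, so those 7 were fixed by that choice. A link of the run to the levels was not tested. The window of Vmn1r139 (chr7:22096617-22096916, plus strand, GRCm38.p6) is shown with the run in capitals as an example of these near copies: that of Vmn1r157 (chr7:22761447-22761746, plus strand) is the same in all 300 bases. Windows were matched to probes by symbol alone. The probe named Vmn1r157 lies beside that of Vmn1r139 on mm9, so it cannot be taken to read a separate gene with that window.
Vmn1r139: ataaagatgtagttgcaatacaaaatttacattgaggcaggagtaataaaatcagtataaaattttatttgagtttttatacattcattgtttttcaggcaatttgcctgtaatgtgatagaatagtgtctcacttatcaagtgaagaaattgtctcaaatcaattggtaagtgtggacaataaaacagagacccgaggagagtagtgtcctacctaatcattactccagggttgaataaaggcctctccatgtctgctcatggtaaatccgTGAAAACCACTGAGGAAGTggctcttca
The Vmn1r124 window was 98.7% identical to it, and those of Vmn1r131, Vmn1r122 and Vmn1r151 were 90.7%, 90.3% and 89.3% identical to that of Vmn1r124. Windows of the other called genes, Vmn1r240, Vmn1r183 and Vmn1r181, stood at 87.3%, 85% and 51.3%. Those of Vmn1r118, Vmn1r101 and Vmn1r121, which did not pass, stood at 90.7%, 86% and 85.3%.

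Of the other lower probes, that of Plgrkt (chr19:29423415-29423474), which encodes a membrane receptor for plasminogen, stood at -1.45, -1.87 and -1.61 in prepubertal and at 0.01, 0.13 and 0.31 in mature oocytes. It was 3.47-fold lower in prepubertal oocytes, with a difference of -1.80 (SE 0.20, limma adjusted p = 0.0352) and ages that were separate. Srp68 (chr11:116106502-116106561) encodes a subunit of the signal recognition particle, which directs secreted and membrane proteins to the endoplasmic reticulum. Its probe stood at -1.33, -1.38 and -1.59 against 0.25, 0.06 and 0.18, a 3.02-fold lower level in prepubertal oocytes (difference -1.60, SE 0.18, limma adjusted p = 0.0352). Of the 41 measured genes of the unfolded protein response and secretion list, to which Srp68 belongs, it was the only one past the threshold. The next by p was Sec61a1, the pore of the translocon, at 0.60 (SE 0.19, limma adjusted p = 0.429). The list had a median of 0.12 (0.05 within slide 1).

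Hinfp encodes a zinc finger factor that activates histone H4 genes at the start of S phase. One of its probes (chr9:44106295-44106443, a span of 149 bases for a 60-base probe) was well above background on all 3 mature arrays, at -4.25, -4.61 and -4.65, and on no prepubertal array, where it read -7.41, -6.80 and -7.46. Hinfp was at least 1.72-fold lower by this probe, against the lowest signal that counted as above background on each prepubertal array. Folds given as at least compare means with that signal and do not allow for the spread among arrays. Its second probe (chr9:44103969-44104028) read -1.08, -1.19 and -1.18 in prepubertal and -1.74, -0.82 and -1.32 in mature oocytes. That is a difference of 0.15 (SE 0.27, 95% interval -0.47 to 0.76) with ages that overlapped, so the probes of this gene disagreed.

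Both higher probes belonged to genes of other kinds. Defb41 (chr1:18241243-18241302) encodes a beta-defensin, one of a family of small antimicrobial peptides known from epithelia and the epididymis. It stood at 3.33, 3.77 and 3.47 in prepubertal and at 1.90, 2.11 and 2.02 in mature oocytes. Its level was 2.86-fold higher in prepubertal oocytes (difference 1.52, SE 0.18, limma adjusted p = 0.0443). A second Defb41 probe was above background on only 2 of the 6 arrays and was left out of the test. It read -6.24, -6.91 and -6.67 against -6.04, -5.20 and -5.08, with the opposite sign. Of the 25 beta-defensin genes measured, 10 were above 0, with a median of -0.11 that was 0.14 with normexp and 0.01 within slide 1. Lpxn (chr19:12908221-12908280) encodes leupaxin, a focal adhesion adaptor best known from blood cells. It read -4.78, -4.30 and -4.47 in prepubertal oocytes and -7.30, -7.08 and -6.45 in mature ones, where it was not above background on any array, so it was at least 2.00-fold higher. The leukocyte marker list had median levels of -1.58, -1.57 and -1.46 on the prepubertal and -1.46, -1.01 and -1.08 on the mature arrays. The median difference of its genes was -0.31 over all arrays and -0.03 within slide 1. Its member of smallest p, Itgax, an integrin of myeloid cells, differed by 2.07 (SE 0.88, limma adjusted p = 0.462) with ages that overlapped. Itgax was above background on only 2 prepubertal arrays and 1 mature array. The part of leukocyte markers in the Lpxn result was not tested.

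The 3 climacteric arrays set part of the spread behind these calls, and 2 of them shared slide 2 with mature arrays 2 and 3, so their values are given only as a description. Vmn1r183 read 1.65, 1.45 and 1.40 on them, Plgrkt 0.30, 0.25 and 0.76, and Srp68 0.01, 0.17 and -0.36. Lpxn read -5.40, -4.76 and -5.27.

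Next in order of p, among probes with a gene symbol, were those above background on all 6 arrays whose ages did not overlap but which did not pass the threshold, at limma adjusted p of 0.0885 to 0.244. Among the 8 with the smallest p and a positive difference, Ust, a sulfotransferase of glycosaminoglycan chains, read 0.64, 0.80 and 0.91 in prepubertal and -0.19, -0.41 and -0.52 in mature oocytes, a difference of 1.16 (SE 0.17). Cirbp, a cold-inducible RNA-binding protein, read 4.39, 4.73 and 4.57 against 3.74, 3.59 and 3.46, a difference of 0.97 (SE 0.16). Gjc1, a connexin of gap junctions, read 0.73, 0.53 and 0.72 against -0.62, -0.39 and -0.10, a difference of 1.03 (SE 0.18). All 3 genes showed a gap between the ages that was wider than the spread within each. Differences of the remaining 5 were 1.57 for Tmem51, a transmembrane protein, 1.19 for Mapk14, the p38 alpha stress kinase, 1.21 for Tlk1, a kinase of chromatin assembly, 1.38 for Igtp, an interferon-inducible GTPase, and 1.09 for Trim62, a ubiquitin ligase. A second Mapk14 probe differed by 0.30 (SE 0.52).

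Among the 8 with a negative difference were Vmn1r132 and Vmn1r148. Cdo1, the dioxygenase that begins the oxidation of cysteine, read -0.02, 0.50 and -0.02 in prepubertal and 1.45, 1.62 and 1.62 in mature oocytes, a difference of -1.41 (SE 0.19, limma adjusted p = 0.0929). Suox, the mitochondrial oxidase that turns sulfite into sulfate, read 2.72, 2.69 and 2.50 against 3.84, 3.61 and 3.72, a difference of -1.09 (SE 0.15, limma adjusted p = 0.102). Prepubertal arrays lay below mature ones for both of these enzymes of sulfur amino acid breakdown, and neither passed. Map3k21, a kinase upstream of stress kinases, differed by -1.65, Ranbp17, a nuclear transport receptor, by -1.11, Phactr3, a regulator of protein phosphatase 1 and actin, by -1.001, and the uncharacterized 2410137M14Rik by -1.43.

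Detection itself differed between the ages in the same direction as between the slides. On all 3 prepubertal and no mature array 20 probes (0.0682%) were above background, and on all 3 mature and no prepubertal array 162 (0.552%). The 3 prepubertal arrays had 68.0% to 73.3% of probes above background, mature array 1 on the same slide 70.9%, and mature arrays 2 and 3 76.8% and 76.6%. The part of this in the 2 counts was not tested. Among genes above background on the prepubertal and not the mature arrays, Klhl24, an adaptor of ubiquitin ligases, read -1.95, -3.13 and -2.95 and was at least 6.74-fold higher, though the adjusted p was 0.428 (limma). Vipr2, a receptor for vasoactive intestinal peptide, read -3.30, -2.82 and -4.71 and was at least 3.74-fold higher (limma adjusted p = 0.327). BC004004 was at least 2.56-fold and Olfr1322 at least 1.78-fold higher (limma adjusted p = 0.442 and 0.0511), and 2 further BC004004 probes differed by 0.66 and 0.56.

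In the reverse pattern, Prkaa2, a catalytic subunit of the energy sensor AMPK, read -7.42, -6.94 and -5.15 in prepubertal and -2.86, -3.90 and -2.87 in mature oocytes. It was at least 4.02-fold lower in prepubertal oocytes (limma adjusted p = 0.292). The aquaglyceroporin Aqp9 was at least 2.69-fold lower, the muscle membrane linker Utrn at least 3.09-fold and the biliverdin reductase Blvrb at least 2.10-fold, at limma adjusted p of 0.143 to 0.244. The Nup188 probe gave at least 5.30-fold lower, but further probes of this nuclear pore gene differed by -0.43 (SE 0.44) and 0.28 (SE 0.82). None of these reached the threshold, and their detection on every mature array was the basis on which they were chosen.

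Transcripts on which egg function is known to depend were taken as a panel of 18 genes, all of which were measured. None passed, and 4 of 18 had an unadjusted p under 0.05, where 10.9% of all genes did (5.58% higher and 5.3% lower). Kdm1b, the histone H3K4 demethylase needed to set maternal imprints, had the smallest p. It read 6.30, 6.49 and 6.39 in prepubertal and 5.62, 5.53 and 5.69 in mature oocytes, with ages that were separate and a difference of 0.78 (SE 0.15, 95% interval 0.44 to 1.12, limma adjusted p = 0.292). Padi6, a component of the cytoplasmic lattices, read 6.46, 6.68 and 6.66 against 6.18, 5.76 and 5.76 (0.70, SE 0.19), again with separate ages. Nlrp5, a member of the subcortical maternal complex, differed by 0.68 (SE 0.26) with ages that overlapped, and Ooep, of the same complex, by -0.52 (SE 0.40). Mos, the kinase that holds the egg at metaphase II, read 2.76, 2.76 and 2.74 against 2.99, 3.13 and 3.50 (-0.45, SE 0.17).

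The remaining panel genes had an unadjusted p above 0.05 (limma). The growth factors Gdf9 and Bmp15 differed by 0.12 (SE 0.17, interval -0.26 to 0.49) and -0.04 (SE 0.20, interval -0.48 to 0.41), and Zar1, which binds stored mRNA, by 0.14 (SE 0.17). Of the zona pellucida genes, Zp1 differed by 0.50 (SE 0.26), Zp2 by 0.10 (SE 0.33) and Zp3 by -0.23 (SE 0.30), and the transcription factors Nobox and Figla by 0.35 (SE 0.16) and -0.04 (SE 0.53). Of genes of chromosome cohesion and its guard, Rec8 differed by -0.30 (SE 0.16), Sgo2a by 0.22 (SE 0.18), Bub1b by -0.15 (SE 0.17) and Smc1b by 0.22 (SE 1.00), and Dnmt1, the maintenance methyltransferase, by 0.49 (SE 0.32). The 95% intervals of the 18 differences, which are not adjusted for the number of probes, had a median half-width of 0.44. For many of them, changes below about that size on the log2 scale could not be told from 0. Passing the threshold took more: Kdm1b did not pass at 0.78, and the smallest difference that passed was 1.35 in size.

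Larger groups of genes were described by lists, in which each gene is represented by its brightest kept probe. Over all 18361 genes, 50.7% were above 0 and the median was 0.01, with 13 genes (0.0708%) past the threshold. At an unadjusted p under 0.05 (limma), 5.58% of them were higher and 5.3% lower, the shares to set beside the counts of the lists. Of 26 lists by function, 23 had a median above 0. That number was 19 with quantile normalization, 18 with the deposited table and 17 within slide 1. Differences varied with signal. With probes cut by mean level into 5 groups of equal size, the median was 0.13 in the brightest group, -0.01 in the next, and -0.09, -0.10 and -0.02 in the dimmer ones. With quantile normalization the same medians were 0.00, -0.03, -0.02, 0.00 and 0.05, and within slide 1 they were 0.05, -0.02, -0.02, 0.01 and 0.09. In the main values, 67% of the probes of the brightest group were above 0. Lists differed in how many genes lay there: 33 of 39 for oocyte identity, 73 of 79 for the cytosolic ribosome and 5 of 29 for apoptosis. The part of signal in the list medians was not tested, and within-slide medians are given beside them.

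**Figure D3:**
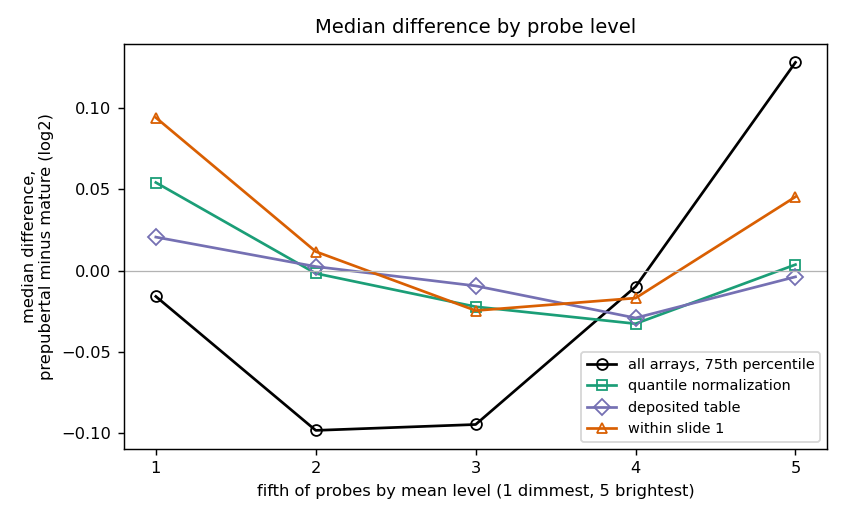
Median log2 difference, prepubertal minus mature, over each of 5 equal groups of probes ordered by mean level, for the main values, quantile normalization, the deposited table and slide 1 alone. The main values run from -0.10 to 0.13, highest in the brightest group, and those of the deposited table stay between -0.03 and 0.02.

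Oocyte identity and maternal-effect genes had 28 of 39 measured members above 0, with a median of 0.14 (0.13 within slide 1). Of the 39, 33 lay in the brightest group, where 67% of all probes were above 0. At an unadjusted p under 0.05, 4 members of the list were higher and 1 lower, and 0 passed over all probes. Besides Padi6, Nlrp4f, an oocyte NLR protein, read 6.66, 7.27 and 7.03 against 6.35, 6.17 and 6.37 (0.69, SE 0.23). The early oocyte factors Lhx8 and Sohlh2 went opposite ways, with 0.47 (SE 0.17) and -0.76 (SE 0.23). Of 30 genes of the meiotic cell cycle, 16 were above 0 (median 0.02, -0.01 within slide 1 and -0.03 with quantile normalization). Cdc25a, a phosphatase that activates cyclin-dependent kinases, read 2.72, 3.08 and 3.44 against 2.22, 2.16 and 2.05 (0.94, SE 0.20, limma adjusted p = 0.389), and the spindle kinase Aurka differed by 0.56 (SE 0.20). Ages were separate for each of the genes just named.

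Chromosome machinery followed with small shifts. Cohesin and its regulators had 16 of 20 genes above 0 (median 0.19, 0.18 within slide 1), with Esco1, an acetyltransferase of cohesin, at 0.58 (SE 0.19) and Cdca5, sororin, at 0.56 (SE 0.19). The spindle, checkpoint and kinetochore list had 21 of 32 above 0, with a median of 0.06 (0.03 within slide 1) that was -0.05 with quantile normalization, and Spc25 of the Ndc80 complex at 0.58 (SE 0.17). For these 2 lists, 3 genes in all had an unadjusted p under 0.05, all higher, and 0 passed the threshold. Among all genes, 5.58% were higher at that p.

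Turning to energy metabolism, of 77 nuclear genes of oxidative phosphorylation, 62 were above 0 and the median was 0.21, but it was -0.01 within slide 1. Only 3 had an unadjusted p under 0.05, all higher, among them Cox5a of complex IV at 0.41 (SE 0.17) and Atp5e of the ATP synthase at 0.51 (SE 0.22), and 0 passed. The median levels of the list on the arrays were 2.51, 2.40 and 2.40 in prepubertal and 2.49, 2.17 and 1.92 in mature pools. Mature array 1, on slide 1, lay with the prepubertal arrays, so the ages overlapped. The mitochondrial ribosome list had 51 of 72 above 0 (median 0.17, 0.01 within slide 1), with 7 higher and 2 lower at an unadjusted p under 0.05. Of its members, Mrps30 and Mrps15 differed by 0.76 (SE 0.20) and 0.56 (SE 0.16), and Mrps2 by -0.46 (SE 0.16). The citric acid cycle had 18 of 25 above 0 (median 0.14, 0.12 within slide 1), glycolysis 8 of 18 (median -0.05, -0.33 within slide 1) and antioxidant defence 20 of 29 (median 0.17, 0.00 within slide 1). Tfam, which packages and transcribes mitochondrial DNA, read -4.33, -4.06 and -4.26 against -3.27, -3.75 and -3.41 (-0.74, SE 0.19), and Dnm1l, the mitochondrial fission GTPase, 0.93, 1.77 and 1.52 against 0.82, 0.44 and 0.61 (0.79, SE 0.24).

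Protein synthesis and turnover gave 48 of 79 genes of the cytosolic ribosome above 0, with a median of 0.05 that was -0.24 within slide 1 and -0.06 with quantile normalization. Translation factors had 32 of 41 above 0 (median 0.24, 0.13 within slide 1), with 7 higher and 1 lower at an unadjusted p under 0.05. The list's median level was 2.87, 2.73 and 3.01 in prepubertal and 2.68, 2.45 and 2.30 in mature pools, so the ages were separate. Eif5, which helps select the start codon, differed by 0.56 (SE 0.16) and Eif2b5, of the exchange factor of eIF2, by -0.84 (SE 0.23). Proteasome genes had 28 of 38 above 0 (median 0.21, 0.01 within slide 1), with Adrm1, a ubiquitin receptor, at 0.66 (SE 0.22) and Psmc4, an ATPase of the cap, at 0.42 (SE 0.15). Chaperones had 22 of 32 above 0 (median 0.24, 0.11 within slide 1, and 0.06 without the 2 arrays of lowest detection), with Cct7 of the chaperonin at 0.62 (SE 0.17) and the small heat shock protein Hspb1 at -0.72 (SE 0.25). Maternal mRNA storage and decay had 27 of 35 above 0 (median 0.17, 0.07 within slide 1), and 0 genes of these lists passed.

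Chromatin and genome maintenance had 40 of 56 genes of DNA methylation and chromatin above 0, with a median of 0.23 and of 0.13 within slide 1. Besides Kdm1b, Suz12, a subunit of Polycomb complex 2, read 3.83, 4.56 and 4.67 against 3.71, 3.51 and 3.45 (0.80, SE 0.23), and the insulator protein Ctcf 3.73, 4.17 and 4.27 against 3.54, 3.27 and 3.38 (0.66, SE 0.20). Prepubertal array 1 was the lowest of its age for both, though still above every mature array. DNA repair had 41 of 55 above 0 (median 0.19, 0.14 within slide 1), with Rpa1 at 0.57 (SE 0.19) and Msh3 at 0.49 (SE 0.19). Telomere genes had 14 of 18 above 0 (median 0.14 in both fits), with Acd, a shelterin subunit, at 0.62 (SE 0.17). Histones and their chaperones had 9 of 22 above 0 (median -0.02, -0.11 within slide 1, 0.02 with normexp), with the linker histone H1f4 at 1.16 (SE 0.30).

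Among lists of signalling and survival, nutrient sensing had 20 of 28 above 0 (median 0.15, 0.10 within slide 1) and autophagy 17 of 28 (median 0.16, 0.10 within slide 1, 0.00 with the deposited table). Ctsd, a lysosomal protease, read 4.45, 4.62 and 4.30 against 3.87, 3.81 and 3.67 (0.67, SE 0.16, limma adjusted p = 0.404), and Atg14, of the autophagy-initiating lipid kinase complex, differed by 0.57 (SE 0.15). Apoptosis genes had 15 of 29 above 0 (median 0.00, -0.02 within slide 1), with the survival factor Bcl2l1 at 0.76 (SE 0.22). Genes for growth-factor and gonadotropin signalling had 20 of 33 above 0 (median 0.13, 0.07 within slide 1), with Kitl, the ligand of the oocyte receptor Kit, at 1.07 (SE 0.31). Sperm binding and egg activation had 20 of 33 above 0 (median 0.04, -0.02 within slide 1), and cholesterol synthesis 9 of 21 (median -0.07, -0.22 within slide 1).

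**Figure D4:**
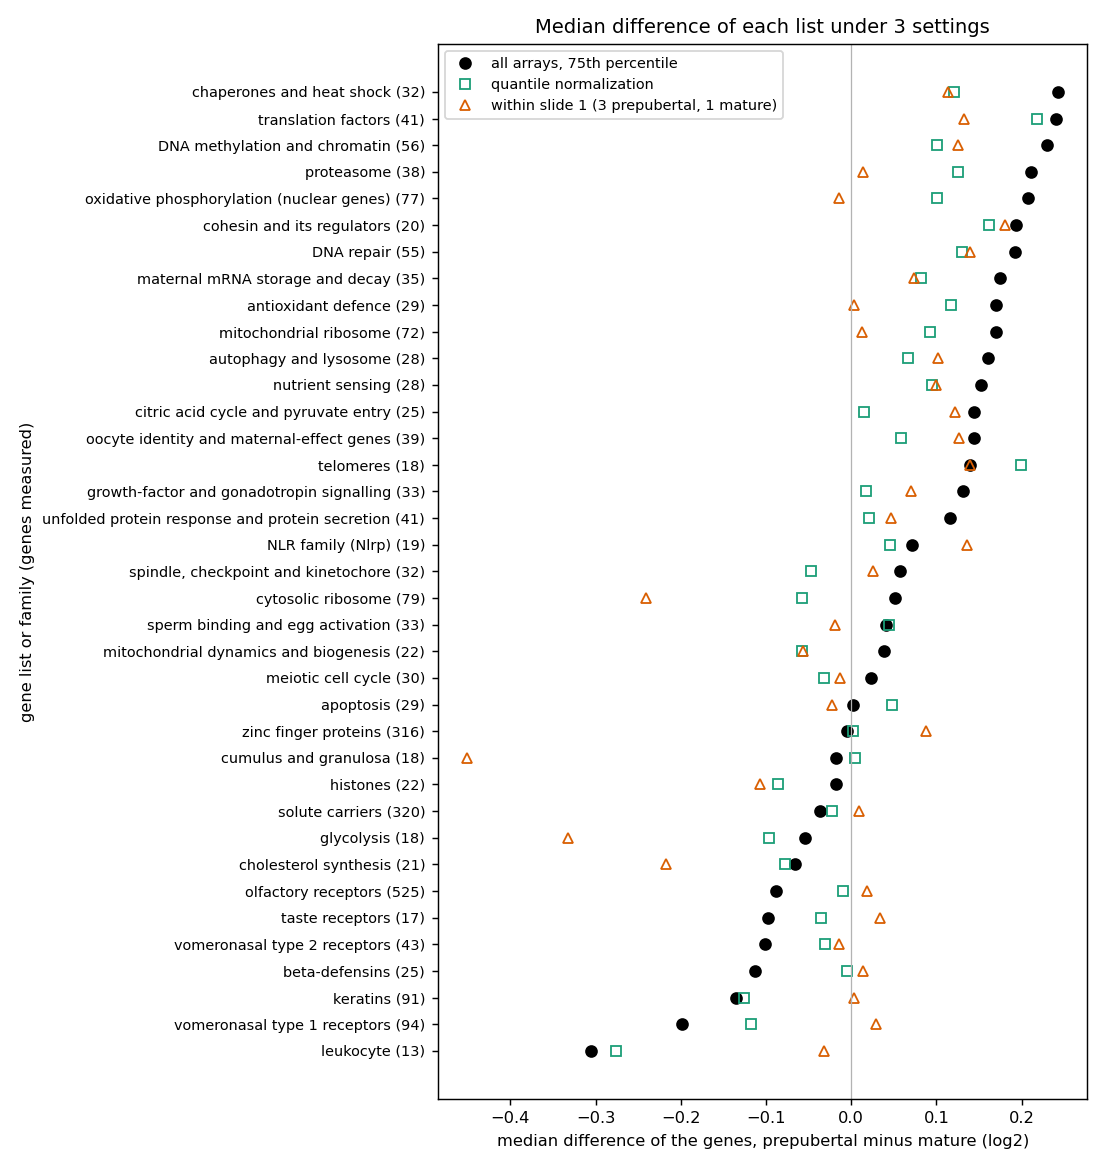
Median log2 difference, prepubertal minus mature, of each list or family with at least 10 genes measured, over all arrays (filled circles), with quantile normalization (squares) and within slide 1 (triangles). The medians of most lists by function lie above 0 over all arrays, that of oxidative phosphorylation is 0.21 there and -0.01 within slide 1, and those of the receptor families lie below 0 over all arrays and near it within slide 1.

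Families of chemosensory receptors other than Vmn1r had medians of -0.10 (vomeronasal type 2 receptors, 14 of 43 above 0), -0.09 (olfactory receptors, 189 of 525) and -0.10 (taste receptors, 5 of 17), which became 0.11, 0.10 and 0.01 with normexp and -0.01, 0.02 and 0.03 within slide 1. Of 525 olfactory receptors, 39 were lower and 9 higher at an unadjusted p under 0.05, where all genes had 5.3% lower and 5.58% higher. Their member of smallest p, Olfr1322, was higher, with a difference of 1.60 (SE 0.19, limma adjusted p = 0.0511). Olfr315 read -6.12, -6.98 and -6.56 against -5.08, -4.39 and -3.38. Of the 6 arrays, Olfr1322 was above background on the 3 prepubertal ones only and Olfr315 on the 3 mature ones only. Each met the filter only through the age where it was high. Tas2r113 differed by -1.36 (SE 0.38), and none of these families had a probe past the threshold. Keratins had 35 of 91 above 0 (median -0.14, 0.00 within slide 1, 0.03 with normexp), 13 lower and 3 higher at an unadjusted p under 0.05. Of 19 NLR genes, 11 were above 0 (median 0.07, 0.14 within slide 1, -0.02 when the percentile was taken over detected probes alone). Nlrp1a, an inflammasome sensor, read 3.17, 3.46 and 1.93 against 5.11, 5.05 and 4.79 (-2.13, SE 0.47, limma adjusted p = 0.389), with separate ages and prepubertal array 3 the lowest. Solute carriers had 152 of 320 above 0 (median -0.04, 0.01 within slide 1, 0.06 with normexp), with the fatty acid transporter Slc27a2 at -1.57 (SE 0.27) and the aspartate-glutamate carrier Slc25a13 at 0.82 (SE 0.18).

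Markers of other cells were read for the same arrays. Cumulus and granulosa markers had 16 to 19 of 21 genes above background on an array and a summed linear level of 41.5 to 62.0 in prepubertal and 36.9 to 57.8 in mature pools, with Lhcgr and Pgr not above background on any. Cyp19a1, aromatase, stood at 3.48, 3.88 and 3.46 against 3.05, 2.58 and 2.88 (0.77, SE 0.22), and Cyp11a1, the side chain cleavage enzyme, at -3.12, -3.71 and -5.22 against -2.14, -2.06 and -2.30 (-1.85, SE 0.58), so steroidogenic markers went opposite ways. The list's median difference was -0.02, -0.45 within slide 1 and 0.44 without the 2 arrays of lowest detection. Leukocyte markers had 12 to 15 of 17 above background and summed to 95.5 to 127 in prepubertal and 103 to 116 in mature pools, with Lyz2 and S100a8 not above background. Theca and stroma summed to 2.10 to 2.45 and 2.20 to 2.78, oviduct epithelium to 1.29 to 2.47 and 1.68 to 2.80, erythroid cells to 2.27 to 2.40 and 2.33 to 2.96, and endothelium to 17.4 to 20.9 and 19.7 to 21.3. Pdgfra of stroma, Epcam and Cdhr3 of oviduct, and Hbb-bs and Gata1 of red cells were not above background on any of the 6 arrays. The sums of the 2 ages overlapped for each of these 6 lists of other cells, though the median levels of leukocyte and endothelium markers did not, and 0 of their genes passed the threshold. Linear sums mostly follow the brightest genes. Endothelium markers had a median level of 0.04, but Kdr stood at 4.02 in prepubertal and 4.18 in mature oocytes. Leukocyte markers had a median level of -1.50, with 1 of 13 measured genes in the brightest of the 5 groups.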

How the data were processed

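Per the file headers, the deposited scanner files hold a linear intensity per spot, read with Agilent Feature Extraction 9.5.1.1. The deposited table of log2 values tracked log2 mean intensity (r of at least 0.999 across probes, medians of 8.03 to 8.04). Its normalization is not given in the sources used here, and it served as an alternative. Probe positions are on mm9, for which no exon or UTR annotation was used here.

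Values were log2 processed signal minus the array's 75th percentile over probes other than controls, without outlier spots (0.195% to 0.621% per array). Probes also needed a value on 2 or more arrays per age. RefSeq symbols (GRCm38.p6) named 29690 probes and the array file 1200, and 8539 had none. A probe dim on every array of an age got a bound, set per array at the lowest signal called above background or its own signal, whichever was higher. Folds from it are differences of means without sampling error. The number of arrays limits the precision.

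Probes were tested with limma 3.58.1 in R 4.3.3 (1 mean per age over 9 arrays, two-sided, Benjamini-Hochberg over all probes kept), tested first on simulated data. Alternatives covered normalization, background, filters, slide, replicate block and single arrays. Members, lists and panel were chosen with earlier results of these data known. Named were genes past the threshold with their other probes, the 8 of smallest p per direction among uncalled probes with separate ages, the panel, up to 4 list members of smallest p, and the 5 largest differences per direction among probes detected in 1 of the 2 ages. Vmn1r121, Vmn1r169, Vmn1r217 and uncalled genes named with the promoters were chosen after their values were seen.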

Additional observations from a re-analysis of the deposited data

How the results depend on the processing

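Against 14 probes past the threshold (limma, Benjamini-Hochberg), the count was 0 with only the 6 arrays, with no filter on dim probes, with slide as a fixed block, within slide 1 and without the 2 arrays of lowest detection, the last added after the data were seen. It was 3 with slide as a random block and 9 both with normexp and with the deposited table. Of the 14, 8 passed with the deposited table, 9 with normexp and 13 with quantile normalization, and their differences ran from 0.37 to 1.96 in size in the deposited table. It was 13 with quantile normalization (1 higher, 12 lower) and with the filter at all 6 arrays, 15 with the percentile over probes above background on all 9 arrays and 16 with 1 probe per gene. Leaving out single arrays gave 0 to 124. The 124, of 28994 probes tested, came without mature array 1 and were 8 higher and 116 lower. In that setting the prepubertal and mature arrays shared no slide, so age and slide could not be told apart. Among the 124 were 13 of the 14. The median over all probes moved from -0.01 to 0.09 with normexp and to -0.11 with the percentile over probes above background, and values relative to it shift by as much. With the replicate number as a block the count was 0 (3076 at an unadjusted p under 0.05). Deviations of same-numbered arrays correlated at 0.14, 0.04 and 0.21, and every prepubertal array correlated best with its own number, a hint from the data and not from the design, so the numbers were not taken as pairs. Among named genes, 4 uncalled panel genes changed sign: Figla was 0.035 with quantile normalization, 0.23 with normexp, 0.016 with the deposited table and 0.11 without the 2 arrays of lowest detection. Without single arrays, Figla ran from -0.36 to 0.12, Bmp15 from -0.13 to 0.056, Zp2 from -0.12 to 0.36 and Zp3 from -0.54 to 0.10. The causes were not tested.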
